A study of Homo sapiens with 12 samples.

Results

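SPRY1, SPRY2, DUSP1, DUSP2, DUSP6, EGR1, IER2 and IER5 were followed here as a group of 8 genes that read out and restrain signalling through the kinase ERK. They were chosen by symbol from the 57905 genes of the annotation used for counting, with earlier results of these data known. Shares of all genes printed beside counts of the 8 are thus a scale for reading and not a test. All 8 were found in the annotation and all 8 passed the floor of a mean of 1 CPM over both libraries, where CPM is the UMIs (molecules counted once) of a gene per 1000000 UMIs of the cells summed. The data were single-cell RNA-seq of Nalm-6, a human cell line from a B-cell precursor leukemia, with 1 control library and 1 library whose label is induced RUNX1 expression. RUNX1 is a transcription factor of blood cell formation, and its cDNA had been placed behind a doxycycline-driven promoter in a stable line made by viral transduction. The library labelled RUNX1 had received 500 ng/ml doxycycline. The control carries the empty vector in its genotype label, DMSO in its title and no doxycycline in its labels, and both libraries are labelled 72 h. The vector, the inducer, the solvent and the culture cannot be told apart from the RUNX1 label. The comparison asked how transcripts differ once RUNX1 is induced, and 10 samples of ChIP-seq were not analysed here.

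Growth factors, antigen receptors and stress activate RAS, RAF, MEK and then ERK, and ERK within minutes switches on a set of immediate early genes. EGR1, a zinc finger transcription factor, and IER2 and IER5, small nuclear proteins, belong to that set. The Sprouty proteins SPRY1 and SPRY2 act upstream to limit the passage of the signal from receptors to RAS and RAF, and the dual-specificity phosphatases remove the activating phosphates from the MAP kinases themselves. DUSP6 acts in the cytoplasm with a preference for ERK, DUSP2 is a nuclear phosphatase of ERK and p38 found mostly in blood cells, and DUSP1 is a nuclear enzyme that prefers p38 and JNK and is itself an immediate early gene. In B-cell precursors the pathway carries signals of the pre-B-cell receptor, and RAS and kinase mutations that feed into it are common in precursor B leukemias.

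The bases before the start of 4 of these genes are shown because their counts carry the results. EGR1 had the largest ratio between the libraries, SPRY2 was at least 2-fold higher, SPRY1 fell just short of 2-fold, and DUSP1 had the most UMIs of the 8. The sequences are the 250 bases upstream of a RefSeq transcription start on GRCh38.p14, a later build than the hg19 of the count files. They are written 5′ to 3′ on the strand of the gene with letters of any searched motif in capitals. The RefSeq table held 11 starts for the 8 genes, with 2 for SPRY1 and 3 for SPRY2. The EGR1 window is chr5:138465229-138465478 on the plus strand, the SPRY2 window chr13:80341127-80341376 on the minus strand, the SPRY1 window chr4:123398136-123398385 on the plus strand and the DUSP1 window chr5:172771196-172771445 on the minus strand.
EGR1: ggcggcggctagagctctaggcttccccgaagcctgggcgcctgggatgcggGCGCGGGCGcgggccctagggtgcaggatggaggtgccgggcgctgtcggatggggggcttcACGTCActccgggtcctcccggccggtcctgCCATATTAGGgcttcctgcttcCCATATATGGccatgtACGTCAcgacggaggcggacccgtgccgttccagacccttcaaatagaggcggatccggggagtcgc
SPRY2: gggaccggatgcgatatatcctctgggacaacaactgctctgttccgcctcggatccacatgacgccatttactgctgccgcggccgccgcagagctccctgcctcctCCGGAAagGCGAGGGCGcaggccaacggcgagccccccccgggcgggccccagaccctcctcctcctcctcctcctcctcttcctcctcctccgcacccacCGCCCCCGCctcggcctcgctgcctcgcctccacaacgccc
SPRY1: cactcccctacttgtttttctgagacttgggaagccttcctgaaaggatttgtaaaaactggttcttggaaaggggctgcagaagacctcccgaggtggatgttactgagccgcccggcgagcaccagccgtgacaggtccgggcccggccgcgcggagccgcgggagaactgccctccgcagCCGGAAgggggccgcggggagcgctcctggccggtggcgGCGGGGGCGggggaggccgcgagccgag
DUSP1: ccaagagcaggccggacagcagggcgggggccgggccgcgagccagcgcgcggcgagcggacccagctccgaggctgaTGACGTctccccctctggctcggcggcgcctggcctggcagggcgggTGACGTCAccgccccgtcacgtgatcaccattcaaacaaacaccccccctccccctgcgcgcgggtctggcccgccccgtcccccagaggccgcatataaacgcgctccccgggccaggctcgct

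Both strands of all windows were searched for 6 sets of letters. The CArG box, the element bound by serum response factor and its ERK-activated partners, had 2 matches in the EGR1 window, which start 105 and 83 bases before the transcription start, and no other of the 8 genes had one, against 1.16% of all 35116 windows of this length. The full cyclic AMP response element TGACGTCA was found in DUSP1, 125 bases before its start, and in 1.65% of all windows. Its shorter form TGACGT, which the full element also contains on both strands, was found 3 times in DUSP1 and 2 times in EGR1 and in 7.1% of all windows. CCGGAA, the core letters of ETS factor sites, was present in 4 of the 11 windows of the 8 genes, 1 each of SPRY1, SPRY2, IER2 and IER5, and in 14.5% of all windows. The site GCGNGGGCG, which EGR1 itself binds, was present in 4 of the 11, 1 each of SPRY1, SPRY2, DUSP2 and EGR1, and in 8.41% of all windows. The SPRY1 and SPRY2 windows printed are those with these matches, and the other start of SPRY1 and the other 2 of SPRY2 had no match to any of the 6. TGTGGT, the letters of a RUNX site, was in none of the 8 and in 11% of all windows, and DUSP6 had no match to any of the 6. A match describes these letters in these windows and not occupancy of a site.

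The libraries held 6073 and 5491 barcodes, of which 5598 and 4800 had more than 2000 and fewer than 6000 genes and under 20% mitochondrial UMIs. Passing cells held 75754137 control UMIs and 75350615 of the library labelled RUNX1. In all, 12 barcodes occurred in both libraries. RUNX1 itself was lower in the library labelled RUNX1, with 5282 control UMIs or 69.7 CPM against 2288 UMIs or 30.4 CPM. The assay reads the 3′ end of transcripts and the sources do not say whether the construct holds that end, so this count does not show whether RUNX1 was induced. The median control cell had 9.40% mitochondrial UMIs and the median cell of the other library 13.0%. The 10 B precursor marker genes in the annotation summed to 4333 CPM for the control and 5398 CPM for the other library, but 4 of the 10 had a ratio above 1 and the median log2 ratio was -0.04. VPREB1, a part of the surrogate light chain, was at 1022 and 2318 CPM, whereas DNTT, the polymerase that adds bases at V(D)J joins, was at 579 and 191 CPM. The 6 T cell markers summed to 7.63 and 9.58 CPM with CD3D, CD3G and CD7 at 0 in both, 6 myeloid markers to 2.28 and 1.81 CPM and 4 erythroid markers to 0.0132 and 0.0133 CPM. No cell type that should lack the 8 genes was among the human cells, so their background share was not measured from such cells. Lanes also held mouse cells. Mouse UMIs in human barcodes served only for the cell filter, and background RNA was not estimated from them. With 1 library per group there was no test between the groups and no replicate check, and every range in parentheses is an interval at 95% for counting error alone.

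Over all passing cells, 6 of the 8 genes had a higher CPM in the library labelled RUNX1 and 2, both of them phosphatases, had a lower one. Of all genes tested, 50.1% had a higher one. EGR1 stood highest among the ratios at 7.30-fold and SPRY2 followed at 2.43-fold, and these 2 were the members that reached 2-fold, where 10.5% of the 12273 genes tested were at least 2-fold higher. No member was 2-fold lower, against 3.78% of all genes tested. The median log2 ratio of the 8 was 0.77 and that of all tested genes was 0.00.

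The feedback inhibitors SPRY1 and SPRY2 both had higher levels. SPRY2 (ENSG00000136158, GRCh37 chr13:80910111-80915261, minus strand) had 716 UMIs in the control, or 9.45 CPM (8.77 to 10.2), while the library labelled RUNX1 had 1733, or 23.0 CPM (21.9 to 24.1), a log2 ratio of 1.28 (1.16 to 1.41). For SPRY1 (ENSG00000164056, GRCh37 chr4:124317950-124324915, plus strand) the counts were 1386 and 2739, or 18.3 CPM (17.3 to 19.3) and 36.4 CPM (35.0 to 37.7). That is a log2 ratio of 0.99 (0.90 to 1.08) for SPRY1, on the other side of the 2-fold line from SPRY2 though its interval includes that line. After each cell had been thinned to 8000 UMIs, SPRY2 was seen in 7.43% of control cells (6.73 to 8.17) and 16.6% of the others (15.5 to 17.8), with Clopper-Pearson limits, and SPRY1 in 12.9% and 21.1%. Without thinning, the shares were 11.8% and 28.3% for SPRY2 and 20.6% and 36.0% for SPRY1. Of 5 relatives, SPRY3, SPRY4 and SPRED3 were under the floor of 1 CPM, and of the 2 tested 0 reached 2-fold in either direction, with SPRED1 at 11.6 and 12.0 CPM and SPRED2 at 7.99 and 7.62 CPM.

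The 3 phosphatases did not share a direction, with DUSP1 higher and DUSP6 and DUSP2 lower. DUSP1 (ENSG00000120129, GRCh37 chr5:172195099-172198198, minus strand) had 7929 UMIs in the control, or 105 CPM (102 to 107), and 11594 in the library labelled RUNX1, or 154 CPM (151 to 157), a log2 ratio of 0.56 (0.51 to 0.60). DUSP6 (ENSG00000139318, GRCh37 chr12:89741012-89746278, minus strand), the cytoplasmic ERK phosphatase, was lower, with 2905 UMIs or 38.3 CPM (37.0 to 39.8) against 1991 UMIs or 26.4 CPM (25.3 to 27.6) and a log2 ratio of -0.54 (-0.62 to -0.45). DUSP2 (ENSG00000158050, GRCh37 chr2:96808908-96811179, minus strand) was lower as well, with 705 UMIs or 9.31 CPM (8.63 to 10.0) against 522 UMIs or 6.93 CPM (6.35 to 7.55) and a log2 ratio of -0.43 (-0.59 to -0.26). The intervals of the ratios of DUSP6 and DUSP2 overlap, and both lie wholly below that of DUSP1. In thinned cells DUSP1 was seen in 49.5% of control cells and 55.4% of the others, DUSP6 in 24.5% and 16.5%, and DUSP2 in 7.14% and 4.75%. DUSP1 and DUSP6 each overlap 1 long noncoding gene on the opposite strand and IER2 overlaps 2.

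Of the 7 other MAP kinase phosphatase genes, 5 were tested, of which 2 were 2-fold or more higher and 0 that much lower. Of all genes tested, 10.5% were that much higher and 3.78% that much lower. DUSP5, a nuclear ERK phosphatase, was at 0.528 CPM for the control against 5.23 CPM for the library labelled RUNX1, with a log2 ratio of 3.31 (2.84 to 3.82). DUSP10, which acts on p38 and JNK, was at 1.44 and 5.02 CPM, a log2 ratio of 1.80 (1.49 to 2.12). DUSP7, a close relative of DUSP6, was at 11.4 and 7.11 CPM and so was lower by a log2 ratio of -0.68 (-0.83 to -0.52). DUSP4 was at 0.818 and 1.19 CPM, a log2 ratio of 0.55 (0.06 to 1.04). DUSP16, a phosphatase of JNK and p38, was at 0.977 and 1.05 CPM, so 4 of these 5 had a ratio above 1.

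The 3 early response members were all higher. EGR1 (ENSG00000120738, GRCh37 chr5:137801168-137804992, plus strand), whose upstream bases held the CArG boxes, had 94 UMIs in the control, or 1.24 CPM (1.00 to 1.52), while the library labelled RUNX1 had 683, or 9.06 CPM (8.40 to 9.77), a log2 ratio of 2.87 (2.56 to 3.20). Even so it was seen in few cells, 0.733% of thinned control cells (0.519 to 1.00) and 5.99% of the others (5.29 to 6.75). IER2 (ENSG00000160888, GRCh37 chr19:13261225-13265725, plus strand) had 5618 UMIs or 74.2 CPM (72.2 to 76.1) against 10221 UMIs or 136 CPM (133 to 138), a log2 ratio of 0.87 (0.82 to 0.92). IER5 (ENSG00000162783, GRCh37 chr1:181057836-181062036, plus strand) had 1232 UMIs or 16.3 CPM (15.4 to 17.2) against 1949 UMIs or 25.9 CPM (24.7 to 27.04), a log2 ratio of 0.67 (0.57 to 0.77). IER2 was seen in 38.6% and 58.0% of thinned cells and IER5 in 11.0% and 16.8%. The few control cells with EGR1 could hold many copies, up to 8 UMIs in 1 cell, whereas no cell of the library labelled RUNX1 held over 4.

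**Figure D1:**
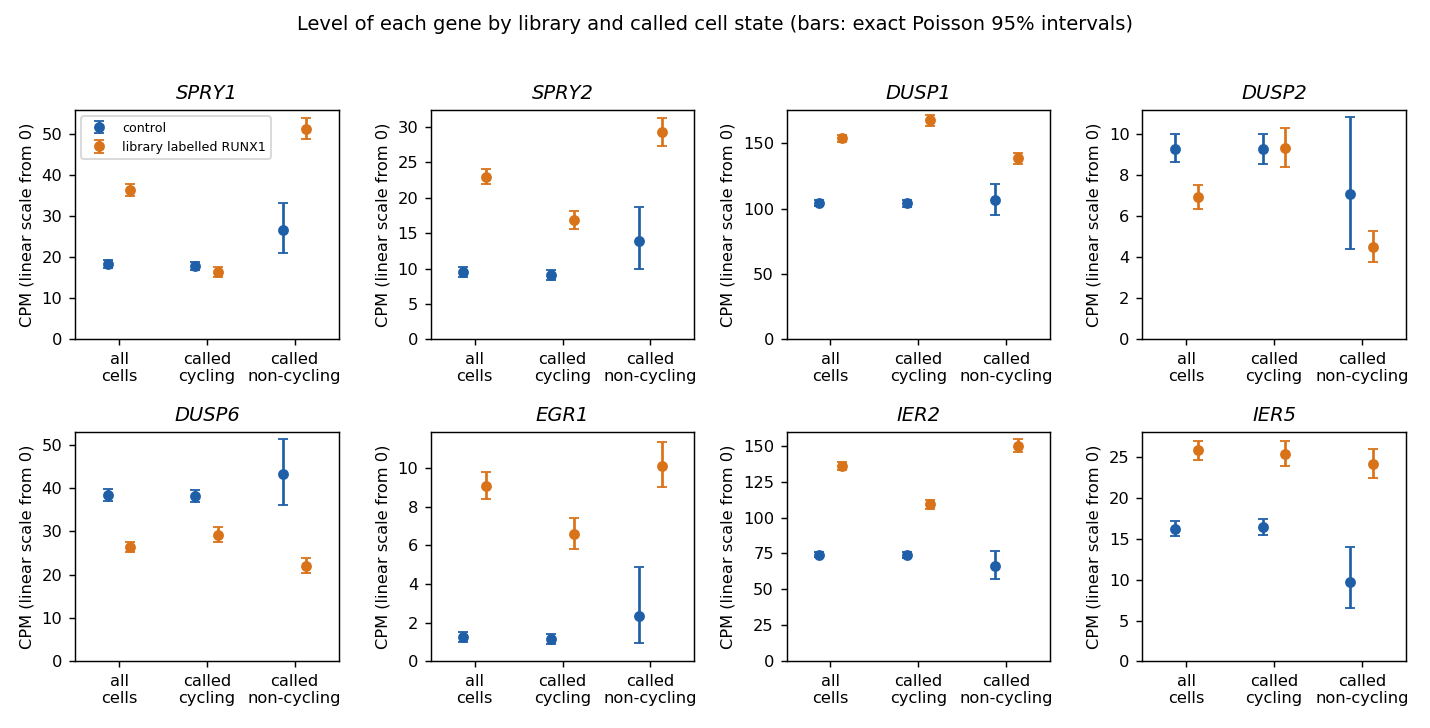
Level of each of the 8 genes (CPM, linear axes from 0) in all passing cells, cells called cycling and cells called non-cycling of the control (blue) and the library labelled RUNX1 (orange), with exact Poisson 95% intervals as bars. EGR1, SPRY2, DUSP1, IER2 and IER5 are higher in orange in all 3 sets of cells, and DUSP6 is lower in all 3. SPRY1 lies at 17.9 and 16.4 CPM in cycling cells but at 26.7 and 51.3 CPM in non-cycling cells.

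Among 25 other immediate early genes, 18 were tested, of which 7 were higher by 2-fold or more and 0 lower. The median log2 ratio of these 18 was 0.51. Of all genes tested over all cells, 10.5% were at least 2-fold higher, 3.78% at least 2-fold lower and 50.1% above a ratio of 1. FOS, a partner of JUN in the factor AP-1, was at 1.04 CPM for the control against 31.9 CPM for the library labelled RUNX1, with a log2 ratio of 4.93 (4.61 to 5.28). FOSB was at 0.607 and 9.18 CPM, IER3 at 9.68 and 71.0 CPM, and JUN at 21.1 and 114 CPM, with log2 ratios of 3.92, 2.87 and 2.43. In all, 12 of the 18 were above a ratio of 1, the direction of EGR1, IER2 and IER5, and 6 were not, among them SRF, the serum response factor, at 11.4 and 6.90 CPM. Of 10 heat shock genes that respond to cell handling, 9 were tested, and 0 were higher and 2 lower by 2-fold or more. These were HSP90AA1 at 2516 and 1224 CPM and HSPA8 at 1274 and 625 CPM. The list summed to 5689 CPM for the control and 3182 CPM for the other library, and 2 of the 9 had a ratio above 1. In cycling cells 0 of the 9 were past 2-fold in either direction, against 4.88% of all genes tested higher and 1.92% lower. In non-cycling cells 1 was at least 2-fold higher, against 15%, and 4 were at least 2-fold lower, against 6.66%. The part of handling in the early response genes was not tested.

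The genes of the kinase cascade itself showed no common direction. Of 22 genes of the RAS-ERK cascade, 21 were tested, of which 1 was higher and 1 lower by 2-fold or more, with a median log2 ratio of 0.00. For this list and those below, the shares of all genes tested over all cells were 10.5% higher and 3.78% lower. The scaffold gene KSR1 was at 1.11 and 5.06 CPM, a log2 ratio of 2.19 (1.84 to 2.55), and RASGRP2, an exchange factor for small GTPases, at 71.2 and 33.3 CPM, a log2 ratio of -1.10 (-1.17 to -1.03). HRAS was at 77.7 and 42.8 CPM, and MAPK3, which encodes the kinase ERK1, at 21.3 and 36.6 CPM. Of 10 genes known as outputs of ERK, 6 were tested and 1 was at least 2-fold higher and 0 lower, namely PHLDA1 at 1.91 and 8.41 CPM. Within states PHLDA1 did not reach 2-fold, at 1.56 and 2.51 CPM in cycling and 10.1 and 14.1 CPM in non-cycling cells. In that list MYC was at 501 and 420 CPM, ELK1 at 13.6 and 15.2 CPM and ELK3 at 10.5 and 6.29 CPM. ETV5, an ETS factor often read as an output of ERK and named here after its values were seen, was at 12.1 and 12.0 CPM, and CCND1 and EPHA2 had 0 UMIs in both libraries. Of 11 genes of the p38 and JNK cascades, 10 were tested and 1 was at least 2-fold higher and 0 lower: GADD45B, an activator of the p38 branch, at 6.18 and 42.5 CPM, a log2 ratio of 2.78 (2.64 to 2.93). MAPK14, which encodes p38 alpha, was at 45.9 and 29.0 CPM, MAP2K4 at 9.73 and 6.26 CPM and MAP2K6 at 7.43 and 9.69 CPM.

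**Figure D2:**
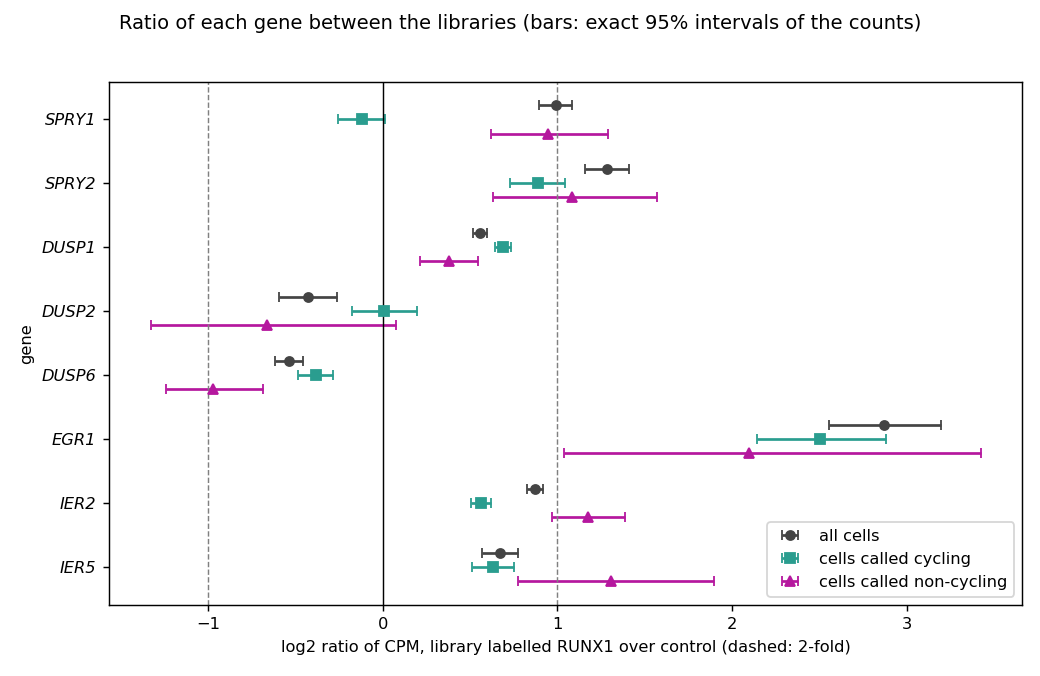
Log2 ratio of each of the 8 genes, library labelled RUNX1 over control, in all, cycling and non-cycling cells, with exact conditional binomial 95% intervals as bars. EGR1 has the highest ratio in every set, DUSP6 lies below 0 in every set, and SPRY1 lies at -0.12 in cycling and 0.94 in non-cycling cells.

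Cells were then split by the phase that scores of 43 S-phase and 54 G2/M genes gave them after thinning, with G1 calls taken as non-cycling and S or G2/M calls as cycling. The control had 4917 cells called cycling and 268 called non-cycling, and the library labelled RUNX1 had 1977 and 2211. The control values in non-cycling cells rest on few cells. Cells under 8000 UMIs, 413 and 612, had no call. The calls read free RNA as well as that of the cell, and 170 and 304 cells lay within 0.05 of the border of the calls. The median depth was 13050 UMIs in cycling and 10360 in non-cycling control cells, and 19970 and 12844 UMIs in those of the library labelled RUNX1.

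In cycling cells, 6 of the 8 genes were above a ratio of 1, against 43.8% of all genes tested. Among these, DUSP2 was at a log2 ratio of only 0.01 (-0.18 to 0.19). Of the 8, 1, EGR1, was at least 2-fold higher, against 4.88% of all genes tested. None, 0 of 8, was at least 2-fold lower, against 1.92%. In non-cycling cells, 6 of the 8 were again above a ratio of 1, against 52.5% of all genes tested. Here 4, EGR1, IER5, IER2 and SPRY2, were at least 2-fold higher, against 15%, with 0 at least 2-fold lower against 6.66%. The median log2 ratio of the 8 was 0.60 in cycling and 1.01 in non-cycling cells, and that of all tested genes -0.06 and 0.04.

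SPRY1 had the largest difference in ratio between the states of the cells. In cycling cells it was at 17.9 CPM in the control (16.9 to 18.9) and 16.4 CPM in the library labelled RUNX1 (15.2 to 17.7), and these intervals overlap. In non-cycling cells SPRY1 was at 26.7 CPM (21.1 to 33.2) and 51.3 CPM (48.8 to 53.9), which do not. Its log2 ratio was 1.07 larger in non-cycling than in cycling cells (0.71 to 1.42). Within the library labelled RUNX1 the non-cycling cells had 3.13 times the SPRY1 level of the cycling cells, and within the control 1.49 times. With control phases weighted to the phase shares of the other library, the log2 ratio of SPRY1 over all called cells was 0.53. That ratio set 21.7 CPM of the weighted control against 31.2 CPM. Cells without a phase call are not in it, and with them the library labelled RUNX1 was at 36.4 CPM. The value thus differs from the 0.99 over all passing cells in both weights and cells.

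SPRY2 showed no such difference beyond counting error. It was at 9.09 CPM in cycling control cells (8.40 to 9.83), 13.8 CPM in non-cycling control cells (9.93 to 18.8), 16.8 CPM in cycling cells of the library labelled RUNX1 (15.6 to 18.1) and 29.3 CPM in its non-cycling cells (27.4 to 31.3). The middle pair of these levels overlap and the lowest and the highest stand apart. The log2 ratio between libraries was 0.89 in cycling and 1.08 in non-cycling cells, a difference of 0.19 (-0.28 to 0.67). With a limit of 10% mitochondrial UMIs the ratio in non-cycling cells was 0.92, under 2-fold.

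DUSP1 had its highest level in cycling cells of the library labelled RUNX1, 168 CPM (164 to 172), above its non-cycling cells at 139 CPM (134 to 143), while both control states lay lower and overlapped, at 104 CPM (102 to 106) and 107 CPM (95.2 to 119). Its log2 ratio between libraries was 0.69 in cycling and 0.38 in non-cycling cells, and the second was smaller by a log2 difference of -0.31 (-0.48 to -0.14). DUSP6 was at 22.1 CPM in non-cycling cells of the library labelled RUNX1 (20.4 to 23.8) and 29.2 CPM in its cycling cells (27.6 to 30.9). It was at 38.1 CPM in cycling control cells (36.7 to 39.6) and 43.2 CPM in non-cycling control cells (36.0 to 51.4), of which the last pair overlap. The log2 ratio of DUSP6 was -0.38 in cycling and -0.97 in non-cycling cells, the latter close to 2-fold lower. DUSP2 was at 4.48 CPM in non-cycling cells of the library labelled RUNX1 (3.76 to 5.30) and between 7.09 and 9.33 CPM in the other 3 groups, whose intervals overlap. The interval of non-cycling control cells (4.39 to 10.8, from 21 UMIs) reaches the lowest group as well. In cycling cells DUSP2 did not differ beyond counting error, at a log2 ratio of 0.01 (-0.18 to 0.19).

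EGR1 was at 1.16 CPM in cycling control cells (0.921 to 1.44) and 6.58 CPM in cycling cells of the library labelled RUNX1 (5.82 to 7.41), a log2 ratio of 2.50 (2.14 to 2.88). In non-cycling cells it was at 2.36 CPM in the control (0.950 to 4.87) and 10.1 CPM in the other library (9.02 to 11.3), a log2 ratio of 2.10 (1.04 to 3.43) that rests on 7 control UMIs. With a limit of 10% mitochondrial UMIs, which leaves 88 and 192 non-cycling cells, that ratio was -0.15, from 5 and 10 UMIs. The 2 control states overlap and both lie below both states of the library labelled RUNX1. IER2 had a higher ratio in non-cycling cells, 66.5 CPM (57.5 to 76.4) against 150.0 CPM (146 to 154), than in cycling cells, 74.0 CPM (72.0 to 76.0) against 109 CPM (106 to 112), and the log2 ratios differed by 0.61 (0.40 to 0.82). IER5 was at 9.79 CPM (6.55 to 14.1) and 24.2 CPM (22.5 to 26.0) in non-cycling cells and at 16.4 CPM (15.5 to 17.4) and 25.4 CPM (23.9 to 27.01) in cycling cells. Its larger ratio in non-cycling cells, by a log2 difference of 0.68 (0.13 to 1.22), goes with a lower control level rather than a higher level in the library labelled RUNX1.

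Between the states of 1 library, 1 of the 8 genes (SPRY1) was at least 2-fold higher in non-cycling cells of the library labelled RUNX1, against 8.47% of all genes tested, and 1 (DUSP2) at least 2-fold lower, against 5.5%. In the control 1 (EGR1, from 7 UMIs) was at least 2-fold higher, against 3.32%, and 0 lower, against 6.27%. For SPRY1 and SPRY2 the non-cycling level was the higher of the 2 states in both libraries.

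In the 612 cells of the library labelled RUNX1 with too few UMIs for a phase call, several members had levels beyond those of either state. In these shallow cells SPRY1 was at 128 CPM (117 to 140), IER2 at 298 CPM (282 to 316), IER5 at 43.0 CPM (36.8 to 49.9) and EGR1 at 26.6 CPM (21.8 to 32.2). SPRY2 was at 38.9 CPM (33.0 to 45.6), and DUSP2 had 3 UMIs or 0.754 CPM (0.155 to 2.20). DUSP1 at 129.6 CPM (119 to 141) overlapped the non-cycling level and DUSP6 at 30.9 CPM (25.7 to 36.9) the cycling level. The 413 control cells without a call had SPRY1 at 20.5 CPM (15.6 to 26.3), IER2 at 86.3 CPM (76.0 to 97.6), IER5 at 19.4 CPM (14.7 to 25.2) and EGR1 at 2.05 CPM (0.751 to 4.45). A split of the library labelled RUNX1 at its median depth gave SPRY1 at 68.9 CPM below and 20.8 CPM at or above the median, IER2 at 199 and 105 CPM, EGR1 at 13.6 and 6.91 CPM and DUSP6 at 25.7 and 26.8 CPM. That split also parted the states, with 296 cycling cells below and 1681 at or above the median. Within non-cycling cells SPRY1 was at 64.7 and 34.8 CPM and IER2 at 184 and 108 CPM, while EGR1 at 11.1 CPM (9.59 to 12.8) and 8.88 CPM (7.37 to 10.6) had overlapping intervals. Within cycling cells SPRY1 was at 24.0 and 15.6 CPM, IER2 at 157 and 105 CPM and EGR1 at 10.5 and 6.19 CPM. The part of depth in the ratios between libraries was not tested. By mitochondrial share, the 599 cells under 10%, the 3057 cells from 10% to under 15% and the 1144 cells from 15% to under 20% had SPRY2 at 26.3, 22.8 and 22.3 CPM, EGR1 at 8.36, 8.35 and 11.5 CPM, DUSP6 at 33.3, 27.5 and 20.1 CPM and IER2 at 180, 136 and 115 CPM.

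Non-cycling cells of the library labelled RUNX1 were next split by UMIs of the chemokine genes CCL3 and CCL4 and of FCER1G, the common gamma chain of Fc receptors, genes chosen with their values known. There were 1067 cells with CCL3 or CCL4, 479 with FCER1G alone and 665 with none, at median depths of 11489, 12290 and 15675 UMIs, and all 268 non-cycling control cells had none. SPRY1 was at 75.9 CPM (71.3 to 80.8) with the chemokines, 43.2 CPM (38.2 to 48.6) with FCER1G alone and 25.3 CPM (22.4 to 28.5) with none, and the last of these overlaps the control level of 26.7 CPM. SPRY2 followed the same order, at 35.4 CPM (32.3 to 38.8), 31.5 CPM (27.3 to 36.2) and 20.3 CPM (17.7 to 23.1), but cells with none overlap the control interval only at its upper end. IER2 was at 187, 155 and 101 CPM in these subsets, with the lowest of them (95.3 to 107) still above the control.

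DUSP1 had the opposite order, at 98.6 CPM (93.3 to 104), 132 CPM (123 to 141) and 192 CPM (184 to 201), so that cells with the chemokines were at the control level of 107 CPM and cells with none well above it. DUSP2 was likewise lowest with the chemokines, at 2.62 CPM (1.83 to 3.65), and at 7.19 CPM (5.67 to 8.99) in cells with none, beside 7.09 CPM in the control. The levels of EGR1 (10.9, 11.3 and 8.40 CPM), IER5 (24.9, 24.8 and 23.1 CPM) and DUSP6 (22.4, 24.5 and 20.2 CPM) had intervals that overlap across the 3 subsets, and in each subset EGR1 and IER5 were above and DUSP6 below the control intervals. In cycling cells of the same library the split gave SPRY1 at 30.6, 28.4 and 13.2 CPM, SPRY2 at 27.8, 28.1 and 14.1 CPM and DUSP1 at 135, 149 and 174 CPM, in 231, 152 and 1594 cells, the same direction between the chemokine-positive cells and those with none.

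**Figure D3:**
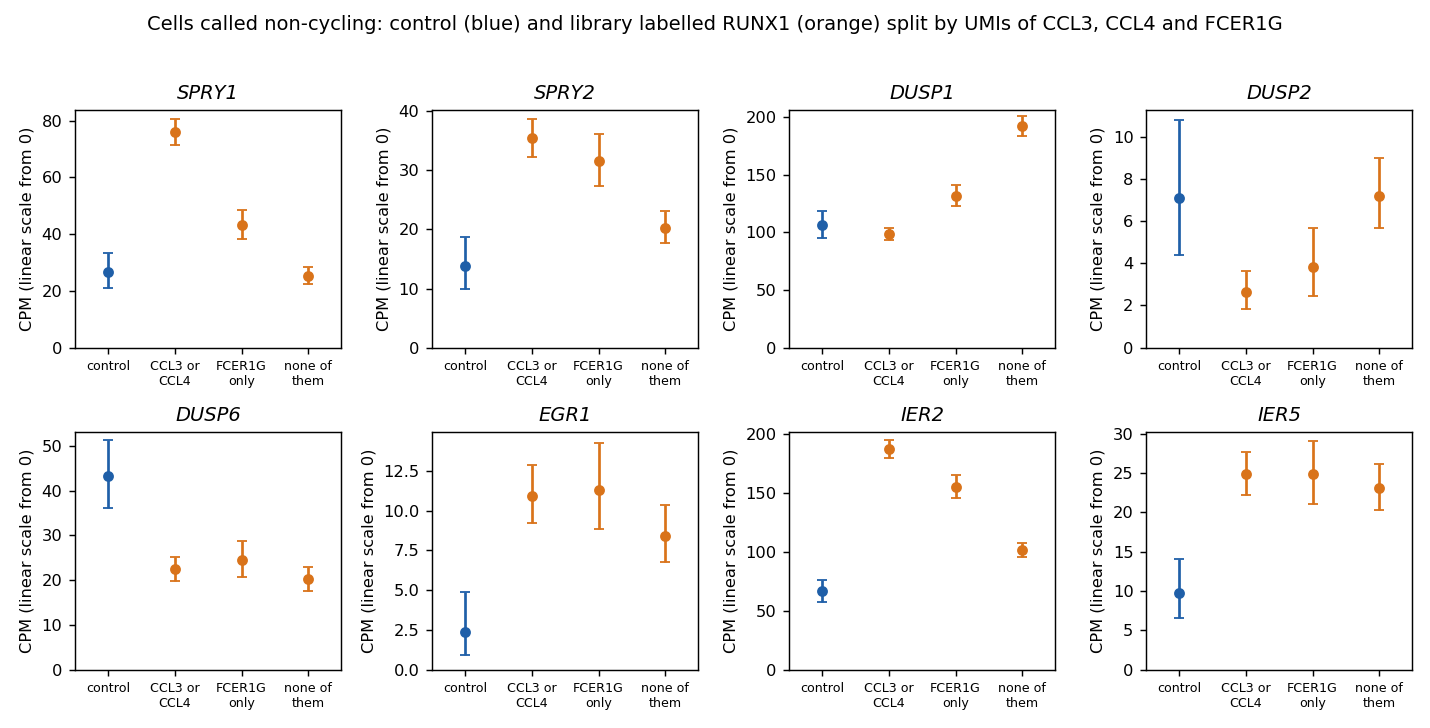
Level of each of the 8 genes (CPM, linear axes from 0) in non-cycling cells of the control (blue) and of the library labelled RUNX1 (orange) split by UMIs of CCL3, CCL4 and FCER1G, with exact Poisson 95% intervals as bars. SPRY1, SPRY2 and IER2 descend from the cells with CCL3 or CCL4 to those with none, DUSP1 and DUSP2 ascend, and EGR1, IER5 and DUSP6 stay level.

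Cells with a FOS UMI were also set apart, again with values known. Among non-cycling cells of the library labelled RUNX1, 651 had FOS and 1560 did not. EGR1 was at 16.1 CPM (13.5 to 19.0) with FOS and 7.82 CPM (6.69 to 9.08) without, SPRY1 at 72.1 CPM (66.5 to 78.0) and 43.2 CPM (40.5 to 46.1), and IER2 at 189 CPM (180 to 199) and 135 CPM (130 to 140). SPRY2 had overlapping intervals, at 29.9 CPM (26.3 to 33.8) and 29.0 CPM (26.8 to 31.4), as had DUSP6 and IER5, and DUSP1 was lower with FOS, at 123 CPM (116 to 131) against 144 CPM (139 to 149).

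Clusters were made from the other variable genes, with the 4 members among them removed, and gave 16 clusters, 8 with most cells from the control and 8 with most from the library labelled RUNX1, each at least 96.4% from its library. A cluster may thus stand for its library. EGR1 ranged from 0.734 to 2.12 CPM over the control clusters and from 5.57 to 34.5 CPM over the others. SPRY2 ranged from 6.23 to 12.0 CPM and from 12.6 to 43.3 CPM, and IER5 from 12.6 to 21.4 CPM and from 21.5 to 48.5 CPM. For these 3 genes the 2 sets of clusters did not overlap, with all clusters of the library labelled RUNX1 above, against 5.94% of all genes tested, and no member had all of them below, against 6.84%. The nearest clusters of the 2 sets had overlapping intervals for SPRY2, at 12.0 CPM (9.10 to 15.5) and 12.6 CPM (10.97 to 14.5), and for IER5, at 21.4 CPM (17.9 to 25.4) and 21.5 CPM (18.9 to 24.4).

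The other 5 genes overlapped. SPRY1 ranged from 12.5 to 22.7 CPM over the control clusters and from 9.63 to 120 CPM over the others, with high levels in 3 clusters of 950, 571 and 131 cells at 83.3, 104 and 120 CPM. In these 98.0%, 99.0% and 93.3% of called cells were in G1, but 20.4%, 46.6% and 77.1% of their cells had no phase call. These 3 clusters were shallow, with median depths of 10078, 8284 and 6440 UMIs. Those of 571 and 131 cells also had the highest EGR1, at 26.9 CPM (22.7 to 31.8) and 34.5 CPM (23.6 to 48.7), whereas that of 950 cells, with the highest SPRY2 at 43.3 CPM (39.4 to 47.5), had the lowest EGR1 of its library at 5.57 CPM (4.22 to 7.22). A high Sprouty level and a high EGR1 level thus did not always go together. IER2 ranged from 50.2 to 112 CPM and from 90.4 to 416 CPM, and DUSP1 from 80.9 to 131 CPM and from 82.7 to 211 CPM. DUSP6 ranged from 26.7 to 50.6 CPM and from 15.4 to 34.9 CPM, and DUSP2 from 6.40 to 12.3 CPM and from 0 to 14.9 CPM, with 0 UMIs in the smallest cluster, whose upper limit was 3.98 CPM.

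**Figure D4:**
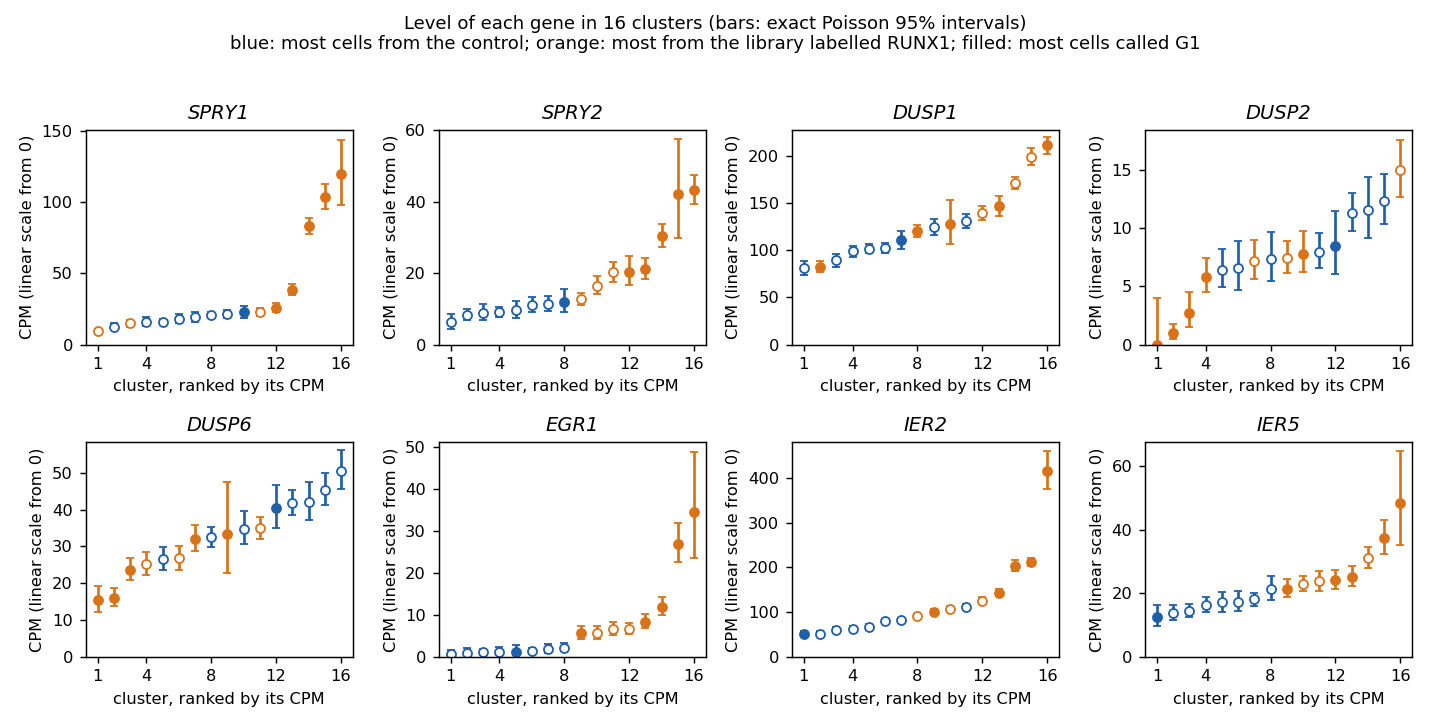
Level of each of the 8 genes (CPM, linear axes from 0) in 16 clusters, ranked within each panel, with exact Poisson 95% intervals as bars; blue clusters are mostly of the control, orange mostly of the library labelled RUNX1, and filled points mark clusters with most called cells in G1. All orange clusters lie above all blue ones for EGR1, SPRY2 and IER5, and 3 filled orange clusters lift SPRY1 to between 83.3 and 120 CPM.

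Across the 16 clusters, which share 2 libraries and their depths, the levels of the 8 genes fell into patterns that are given as a description. On the log2(CPM + 1) scale, EGR1 and IER5 had a Pearson correlation of 0.92, EGR1 and IER2 of 0.86, IER2 and IER5 of 0.86, SPRY2 with IER2 of 0.84 and SPRY1 and SPRY2 of 0.76. SPRY1 and DUSP2 had -0.82 and DUSP6 was negative with 6 of the other 7. The genes whose levels over clusters were most like EGR1 were JUN (0.98), RPL32P3 (0.96) and IER3 (0.96). For SPRY1 they were THRA, PSAP and STK17A, each at 0.98, and for SPRY2 MGST2 (0.98), CCDC57 (0.98) and PPP1R16B (0.97). For IER2 they were AC141586.5 (0.94), HINFP (0.94) and CHKA (0.94), and for IER5 RSBN1L (0.94), ANKS3 (0.93) and DPH7 (0.93). DUSP2 was most like C17orf89 (0.97), METTL5 (0.96) and CCDC85B (0.96), whereas DUSP6 reached 0.88 with MFAP1, 0.86 with GKAP1 and 0.86 with USP28. DUSP1 reached 0.84 with MT-RNR1, 0.81 with C7orf55 and 0.80 with NTPCR. MT-RNR1 is a mitochondrial ribosomal RNA, and the median mitochondrial share of clusters ran from 8.79% to 15.6%.

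Within cells the 8 genes were counted together after thinning. None of them was seen in 16.5% of control cells and 8.33% of those of the other library, and the median cell held 1 and 2 of them. At least 4 were seen in 3.74% and 8.83% of cells, in 3.80% and 7.18% of cycling cells and in 2.61% and 10.3% of non-cycling cells. No control cell held more than 5 and no cell of the other library more than 6. Counts of a gene per thinned cell spread more than sampling alone gives (variance over mean of 1) for DUSP1, IER2 and SPRY1. DUSP1 was at 1.51 for control cells and 2.27 for those of the library labelled RUNX1. IER2 was at 1.61 and 1.62 and SPRY1 at 1.07 and 1.66. EGR1 had the opposite order, at 1.78 in the control and 1.19 in the other library, and DUSP6 was at 1.16 and 1.26. SPRY2, DUSP2 and IER5 lay between 1.02 and 1.11 in both libraries. The spread of SPRY1 counts was thus near that of sampling in the control and above it in the library labelled RUNX1.

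**Figure D5:**
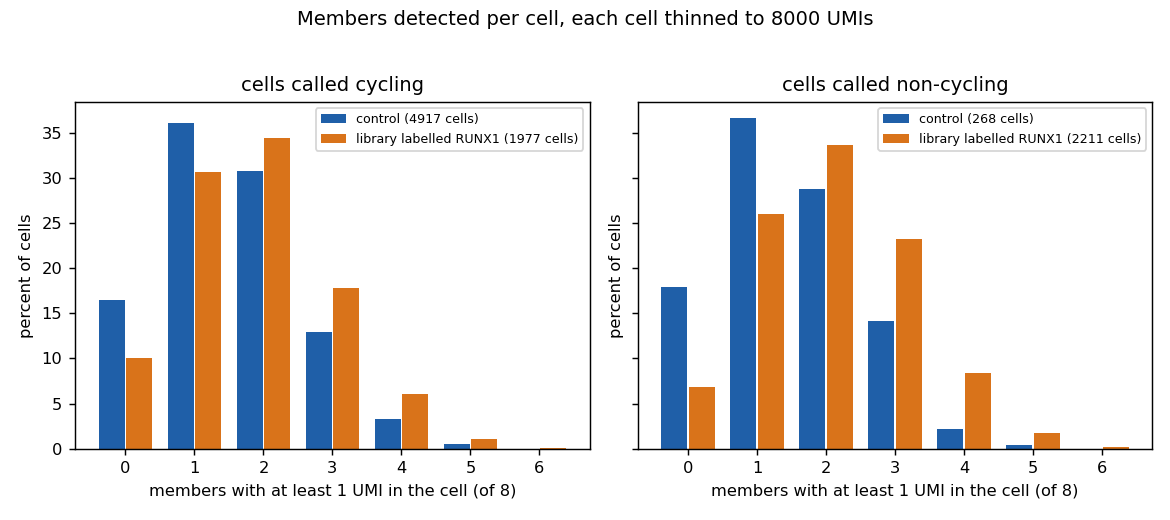
Percent of cells that held 0 to 6 of the 8 genes, each cell thinned to 8000 UMIs, in cells called cycling (left) and non-cycling (right) of the control (blue bars) and the library labelled RUNX1 (orange bars), with axes from 0. The orange bars are shifted to the right in both panels, with at least 4 of the genes in 10.3% of non-cycling cells against 2.61% in the control.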

How the data were processed

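Single-cell RNA-seq (10x Genomics 3′ assay) of 2 Nalm-6 libraries was used, grouped by their genotype labels. The authors ran Cell Ranger 3.0.2 against hg19 joined with mm10, since lanes also held mouse cells, and deposited raw UMI counts of human barcodes without normalization. The deposited control library may be the Nalm-6 DMSO sample that the study describes after 24 h of treatment, a conflict with its labels that was not resolved.

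The cell filter of the study was applied, namely over 2000 and below 6000 genes, below 20% mitochondrial UMIs and below 500 mouse UMIs. Doublets were not removed. CPM was the sum of UMIs over cells as a share of all their UMIs, and is not scaled to length, so levels are not compared between genes. Genes with a mean of 1 CPM or more over both groups of a comparison were tested for size, with 2-fold as the call. CPM has exact Poisson, ratios exact conditional binomial and shares exact Clopper-Pearson intervals at 95%, all for counting error only, and differences of log2 ratios have normal intervals from the counts. Total depth was 75754137 and 75350615 UMIs over 5598 and 4800 cells. For phases (scanpy 1.11.5, lists of Tirosh, both libraries together) and for shares of cells, UMIs were drawn at random down to 8000 per cell, and shallower cells were left out. Clusters used counts scaled to 10000 per cell, 2000 variable genes without the 8 members, 10 principal components and Leiden clustering (20 neighbours, resolution 1). Positions come from GENCODE v44lift37 on GRCh37, matched by identifier for 8 of 8 genes, and upstream sequences from RefSeq on GRCh38.p14, matched by symbol for 8 of 8. Protein sequences were not used here.

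The members and gene lists were chosen with earlier results of these data known. Named genes were the 8 members, RUNX1, up to 4 genes of each list with the largest ratio in size over all cells, and the 3 genes at a mean of 10 CPM or more most like each member over clusters (Pearson). CD24, a symbol of the B precursor list, was not in the annotation. Alternatives changed the cell filter, the scaling (TMM factors from edgeR 4.0.16 in R 4.3.3, median of ratios, and totals without mitochondrial and ribosomal protein genes), the phase call, the phase weights, the fold and the floor.

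Simulated counts, drawn with Poisson error alone, were used to check the calculation of the ratios over the 12273 genes of the comparison over all cells. The 2-fold call was reached by 100 of 100 genes set to 4-fold and by 0 of 100 set to 1.5-fold. Of the intervals, 95.23% held the true ratio. The intervals assume the same Poisson error, so this share checks the calculation only. It does not cover the spread between cells or between libraries. Other steps ran in scipy 1.17.1, numpy 2.4.6, Python 3.11.15, pandas 2.3.3 and matplotlib 3.10.9.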

Additional observations from a re-analysis of the deposited data

Results flagged for a closer look

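The barcodes that failed the cell filter, 475 of the control and 691 of the library labelled RUNX1, entered no comparison. In these barcodes 5 of the 8 genes had an interval in the library labelled RUNX1 wholly above that of the control, against 12.6% of all genes tested, and 0 had one wholly below, against 11.6%. SPRY1 was at 54.2 CPM (48.6 to 60.4) against 19.9 CPM (13.5 to 28.3). SPRY2 was at 21.6 CPM (18.0 to 25.6) against 7.70 CPM (3.98 to 13.5). DUSP1 was at 164 CPM (154 to 174) against 82.2 CPM (68.6 to 97.7). EGR1 was at 18.5 CPM (15.2 to 22.2) against 4.49 CPM (1.81 to 9.26), and IER2 at 169.7 CPM (160 to 180) against 73.8 CPM (61.0 to 88.6). IER5 was at 29.2 CPM (25.1 to 33.9) against 18.6 CPM (12.5 to 26.7), with intervals that overlap, as did those of DUSP2 and DUSP6. The directions are those of the passing cells, but the 2 sets of barcodes differ in why they failed. In the control and the other library, 94 and 260 failed the mitochondrial limit and 4 and 58 had too many genes. Too few genes were held by 469 and 471, and a barcode can fail in more than 1 way. These sums rest on 1557578 control UMIs and 6121864 of the other library, and the cause was not tested.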

How the results depend on the processing

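No paired analysis was possible because the 2 single-cell libraries are 1 per group and the replicate numbers in the labels belong to the ChIP-seq samples, which were not analysed here. Over all cells, all 8 genes kept the direction of their ratio under 7 alternatives, with EGR1 between 2.27 and 3.06, SPRY2 between 0.99 and 1.48 and SPRY1 between 0.53 and 1.45 on the log2 scale. The count of members at least 2-fold higher over all cells was 2. It was 4 with a mitochondrial limit of 10% and 4 with totals without mitochondrial and ribosomal protein genes. It was 1 with phases weighted, which leaves out cells without a phase call. It was 5 at 1.5-fold, where 19.7% of all genes tested were at least 1.5-fold higher. It was 3 with no filter on cells and 3 without the 5% of cells with the most UMIs. In cycling cells that count, 1, was 2 with totals without mitochondrial and ribosomal protein genes. At 1.5-fold it was 4, against 11.1% of all genes tested. In non-cycling cells the count higher, 4, was 5 with no filter on cells, with phases called without thinning or after thinning to 5000 UMIs, with totals without mitochondrial and ribosomal protein genes and at 1.5-fold. With the mitochondrial limit of 10% it was 3, as SPRY1 at 30.8 and 81.4 CPM passed 2-fold while EGR1 and SPRY2, at 20.2 and 38.3 CPM, did not. In these cells the count at least 2-fold lower, 0, was 1 with the mitochondrial limit of 10%, 1 with phases called after thinning to 5000 UMIs and 2 at 1.5-fold. At 1.5-fold, 24.9% of all genes tested were higher and 17% lower in non-cycling cells. Between states of the library labelled RUNX1, 1 gene was higher and 1 lower, and these became 2 and 0 with the mitochondrial limit of 10%, 3 higher at 1.5-fold and 0 lower with totals without mitochondrial and ribosomal protein genes. Of all genes tested, 18.4% were at least 1.5-fold higher between these states. Between states of the control, the 1 gene higher (EGR1, on 7 UMIs) became 0 under 7 alternatives (no filter on cells, without the 5% of cells with the most UMIs, phases without thinning, phases after thinning to 5000 UMIs, scores beyond 0.1 in size, TMM factors and median of ratios), and 2 with the mitochondrial limit of 10% and at 1.5-fold, while the 0 lower became 1 at 1.5-fold. At 1.5-fold, 9.31% of all genes tested were higher and 12.8% lower between states of the control. For the other filters, scalings and phase calls no share of all genes past the fold is given here. The ratio of EGR1 in non-cycling cells was reversed, at -0.15, with the mitochondrial limit of 10%. With scores beyond 0.1 in size, EGR1 had 0 control UMIs and DUSP2 had 3 in non-cycling cells, so no ratio was taken. Signs also turned for DUSP2 (5 of 9 alternatives) and SPRY1 (1 of 9) between libraries in cycling cells. Between states of the library labelled RUNX1 they turned for IER5 (5 of 9) and for EGR1 (1 of 9, to -0.76 with the mitochondrial limit of 10%). Between states of the control they turned for DUSP1 (1 of 9), DUSP2 (1 of 8), DUSP6 (2 of 9) and IER2 (1 of 9). The median of all tested genes moved to -0.13 with TMM factors, -0.12 with median of ratios and 0.20 with totals without mitochondrial and ribosomal protein genes over all cells. The share of all genes at least 2-fold higher over all cells was 3.76% with a floor of 10 CPM and 19.3% with a floor of 0.1 CPM. The stricter filters left fewer cells, and neither the part of this nor any other cause of these changes was tested.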

Other observations

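FOS-positive cells of the control also held more EGR1. Of 4917 cycling control cells, 52 carried a FOS UMI, and in these EGR1 was at 27.03 CPM (16.5 to 41.8, from 20 UMIs) against 0.883 CPM (0.675 to 1.13) in the 4865 cells without FOS, IER2 at 134 CPM (109 to 163) against 73.3 CPM (71.3 to 75.4), and SPRY1 at 27.03 CPM (16.5 to 41.8) against 17.8 CPM (16.8 to 18.8). In cycling cells of the library labelled RUNX1, 320 cells with FOS had EGR1 at 14.0 CPM (11.3 to 17.1) and 1657 without had 5.07 CPM (4.35 to 5.89). The library labelled RUNX1 was thus above the control in EGR1 among cells without FOS, whereas among cells with FOS the control value was not the lower of the 2. The EGR1 UMIs of cycling control cells came from 56 of the 4917 cells, with up to 8 in 1 cell. The intervals do not cover such clumping. FOS was chosen to split the cells after its values were seen.

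RASGRP2, an exchange factor for small GTPases found in blood cells, was at 72.1 CPM in cycling and 56.7 CPM in non-cycling cells of the control, and at 49.3 and 11.3 CPM in those of the library labelled RUNX1. PHLDA1 was at 1.56 and 10.1 CPM in cycling and non-cycling cells of the control and at 2.51 and 14.1 CPM in those of the library labelled RUNX1, so that it differed more between states than between libraries within a state. DUSP5 was at 0.515 CPM in cycling control cells, at 1.07 CPM in cycling cells of the library labelled RUNX1 and at 7.28 CPM in its non-cycling cells, with 2 UMIs in the non-cycling cells of the control.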
